A study of Homo sapiens with 16 samples.

Results

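The comparison is between 48 h and 24 h after transfection of siCAG, a small interfering RNA (siRNA), in PC3 and HeyA8 cells. It rests on the 4 siCAG libraries of 16 in the series, with 1 library for each line and time, and the cell line was kept as a block. PC3 is a prostate cancer line and HeyA8 is an ovarian cancer line that the labels trace to the line HEY-T30. Cells were transfected in 6-well plates as they were plated, with the lipid reagent RNAiMax. The labels give 1 nM of siRNA. The study's methods, which do not describe siCAG, give another concentration. The other 12 libraries came from the same lines and times after mock transfection or transfection with siNT1, a non-toxic control duplex, or siGGGGGC, a duplex named for its 6mer seed. These names are from the treatment labels, while the sample titles and count columns call siGGGGGC siMxy and siNT1 siNT. There the names of siCAG, siNT and siMxy also carry a suffix, absent from mock, that the sources used here do not explain. In the methods, medium was changed at 24 h in wells kept to 48 h, so this change falls between the times compared. The methods describe transfection in duplicate wells, while the labels give 1 library for each line, siRNA and time and do not say whether wells were pooled. The 2 siCAG libraries of a time are thus 2 lines and not repeats of 1 line. No error within a line at 1 time can be had from the siCAG libraries themselves.

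An siRNA guide strand is loaded into an Argonaute protein and pairs with RNAs that hold complementary sequence. A strand of CAG repeats is complementary to runs of CUG, written CTG in the DNA. The sequence of siCAG is not given in the sources used here. Dividing cells switch on genes of DNA replication through E2F factors before S phase, and genes of mitosis later, in G2 phase and mitosis. The p53 protein restrains that programme through CDKN1A, the cell cycle inhibitor p21. The factor ATF4 switches on genes of amino acid supply when the integrated stress response is active.

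The libraries held 27937092 to 31790209 reads counted in genes, with medians of 28520015 in PC3 and 30537650 in HeyA8. Of 26485 genes, 12238 passed the filter on low counts. Values below are normalised read counts, which are counts scaled by edgeR's TMM factors over all 16 libraries. A change within a line is log2 of the normalised count at 48 h over that at 24 h, after 0.5 was added to each.

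The lines matched their labels. CTNNA1, the adhesion protein alpha-catenin, had 37 to 72 raw counts in the PC3 libraries and 17062 to 22364 in HeyA8. EPCAM, an epithelial surface protein, ran the other way, with 421 to 938 in PC3 and 10 to 48 in HeyA8. KRT19 and CDH1 were likewise higher in PC3. KRT8 was higher in HeyA8, at 8438 to 29072 against 3590 to 7644, and KRT18 overlapped. PAX8 had 44 to 192 in PC3 and 1838 to 6680 in HeyA8. The prostate marker KLK3 was at 0 in all 8 PC3 libraries. MUC16, an ovarian cancer antigen, was at 0 to 5 in HeyA8, so neither marker shows the tissue of its line. Of 13 markers of other cell types, 4 or 5 were at 0 in each siCAG library. Their summed raw counts were 2150 at 24 h and 3099 at 48 h in PC3, and 3813 and 3086 in HeyA8. COL1A1 led that list in PC3 and CD68 led it in HeyA8. The T cell marker CD3E was at 0 in all 16 libraries, and PTPRC, the pan-leukocyte marker, did not pass 12 counts. Other members were present, with CDH5 at 99 to 270 counts in HeyA8, PECAM1 at 45 to 159 in PC3 and CD68 at 648 to 2998 in HeyA8.

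RPL14, a protein of the large ribosomal subunit, holds 10 CTG in a row in its coding sequence, on the plus strand at chr3:40462030-40462059 (hg38). Its level was read in each siCAG library, and whether siCAG pairs with this run was not tested. The run is shown because its letters are the complement of CAG repeats, and the capitals mark the run itself.
RPL14: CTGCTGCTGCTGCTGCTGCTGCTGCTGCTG
RPL14 stood at 534 normalised counts at 24 h and 394 at 48 h in PC3 with siCAG, against 14859 and 16606 with siNT1. In HeyA8 it stood at 527 and 253 with siCAG, against 26721 and 26752 with siNT1. All 4 siCAG libraries were thus far below every siNT1 library of their line.

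The base composition of transcripts moved with the comparison, in opposite directions in the 2 lines. Across 12004 genes with a matched transcript, Spearman's rho between GC content and the siCAG change was 0.445 in PC3 and -0.654 in HeyA8. With siNT1 it was 0.313 and -0.211, with mock 0.102 and 0.0843, and with siGGGGGC -0.361 and -0.0338. Genes with 36 to 38% GC (712 genes) had a median siCAG change of -0.63 in PC3 and 1.25 in HeyA8, and genes with 60 to 62% GC (644 genes) had 0.20 and -0.60. The HeyA8 siCAG 24 h library stood apart from the other 7 HeyA8 libraries on this measure. Its deviation from the mean of its line had a rho of 0.717 with GC content, against -0.0943 in the siCAG 48 h library and between -0.408 and 0.0403 in the other 6. Genes are not replicates of a condition, so these correlations are descriptions, and the part of base composition in each result was not tested. An alternative with GC content and transcript length offsets is given beside the main groups. It covers changes over time and not levels against siNT1.

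**Figure D1:**
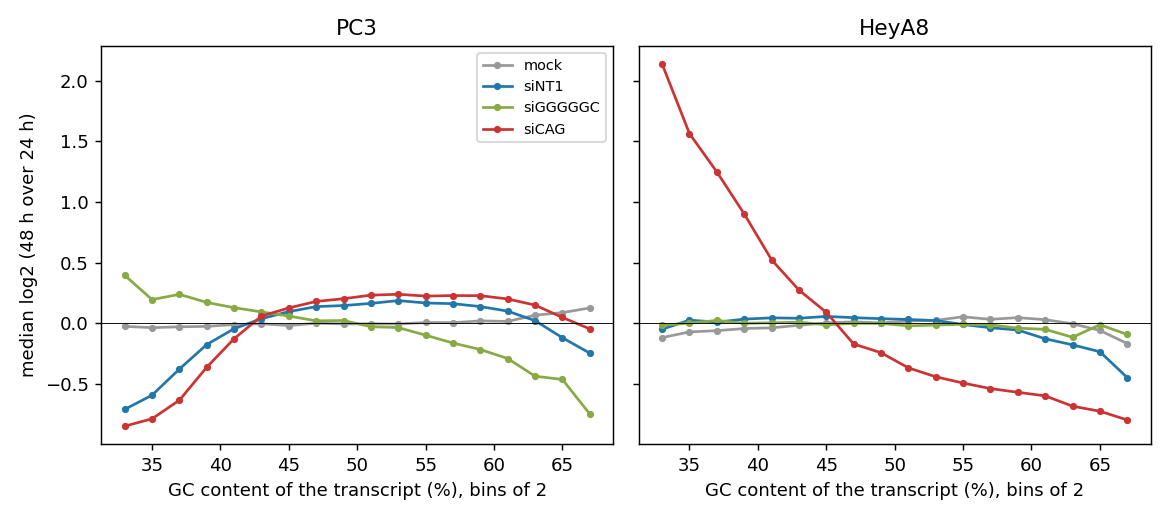
Median log2 change from 24 h to 48 h (vertical axis) of genes in bins of 2% GC content of the transcript (horizontal axis), for each treatment in PC3 (left) and HeyA8 (right), with 1 library per point in time and no error bar. The siCAG line falls from left to right in HeyA8 and rises at its left end in PC3.

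No gene passed the test of a change shared by both lines. In edgeR's quasi-likelihood test with Benjamini-Hochberg adjustment, 0 of 12238 genes (0%) had an adjusted p under 0.05 for siCAG at 48 h against 24 h. At an unadjusted p under 0.05 there were 694 lower (5.67%) and 658 higher (5.38%). DESeq2 on the same design called 156 lower (1.27%) and 33 higher (0.270%). The 4 siCAG libraries fitted alone gave 72 lower (0.588%) and 0 higher, and 30 of the 72 belonged to the list of mitosis genes. That fit has 1 residual degree of freedom. Fitted on all libraries, edgeR's test also called 0 genes over time for siNT1, mock and siGGGGGC. Here the spread includes the difference between the lines in each change over time, that of siCAG among them. The count of 0 for siCAG thus cannot decide whether a response was shared by both lines.

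The 2 lines changed differently. A term for the difference between the lines called 4308 genes (35.2%) in the same test, 2127 with the larger change in PC3 (17.4%) and 2181 with the larger change in HeyA8 (17.8%), where larger means more positive. Each side of this contrast is 1 siCAG library at each time, so its 3 residual degrees of freedom come from the other treatments, and the test assumes that siCAG libraries vary like those. The HeyA8 siCAG 24 h library, which stood apart in base composition, is in this contrast and cannot be left out of it. With the GC and length offsets it called 1053 of 11994 genes, 585 (4.88%) and 468 (3.90%). Scaling by total counts alone moved the split from 2127 against 2181 to 1301 against 2427 and moved the median difference of all genes from 0.30 to 0.13 on the log2 scale. The SD of the siCAG change over genes was 0.493 in PC3 and 1.11 in HeyA8, against 0.399 and 0.368 with siNT1. Pearson's r between the changes of the 2 lines, across genes and given as a description, was -0.187 with siCAG and 0.175 with siNT1.

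The change came mostly from HeyA8. With a PC3 siCAG library left out the time term is read from HeyA8 alone, with the spread taken from the other treatments. That fit called 2619 genes lower (21.4%) and 2564 higher (21.0%). With a HeyA8 siCAG library left out the term is read from PC3 alone, and it called 2 genes lower (0.0163%) and 0 higher, with 2209 at an unadjusted p under 0.05. The 2 genes were ATAD2, a chromatin ATPase, and BRIP1, a DNA helicase of homologous recombination, at -1.41 ± 0.14 and -2.04 ± 0.18 (log2, SE), with adjusted p of 0.0483 and 0.0412 in edgeR's test. These fits assume that a siCAG library varies like the libraries of the other treatments. Below, genes said to rise or fall in HeyA8 alone are those called in the HeyA8 fit. By fold alone, 561 genes were at least 2-fold lower (4.58%) and 107 higher (0.874%) in PC3, against 1362 lower (11.1%) and 1880 higher (15.4%) in HeyA8. After adjustment for GC content and length these counts were 198 and 80 in PC3 and 774 and 878 in HeyA8, of 11994 genes. In both lines together 75 genes were at least 2-fold lower (0.613%) and 20 were higher (0.163%). Another 313 genes were lower in PC3 and higher in HeyA8 (2.56%), and 19 went the other way (0.155%). With siNT1 these opposed counts were 0 and 5.

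The 313 genes lower in PC3 and higher in HeyA8 were rich in A and T and long. Their median GC content was 37.1%, against 47.9% for all genes tested, and their median transcript length was 6320 bases against 3320. In HeyA8 they stood at a median of -1.49 against siNT1 at 24 h and 0.27 at 48 h (log2). In PC3 they stood at -0.23 and -0.68, and their median change was -0.86 with siNT1 as well. IL6ST, a receptor subunit for the interleukin 6 family, went from 4093 to 23031 normalised counts in HeyA8 and from 7462 to 3020 in PC3. With siNT1 IL6ST went from 7963 to 2600 in PC3 and stood at 9576 and 10510 in HeyA8.

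**Figure D2:**
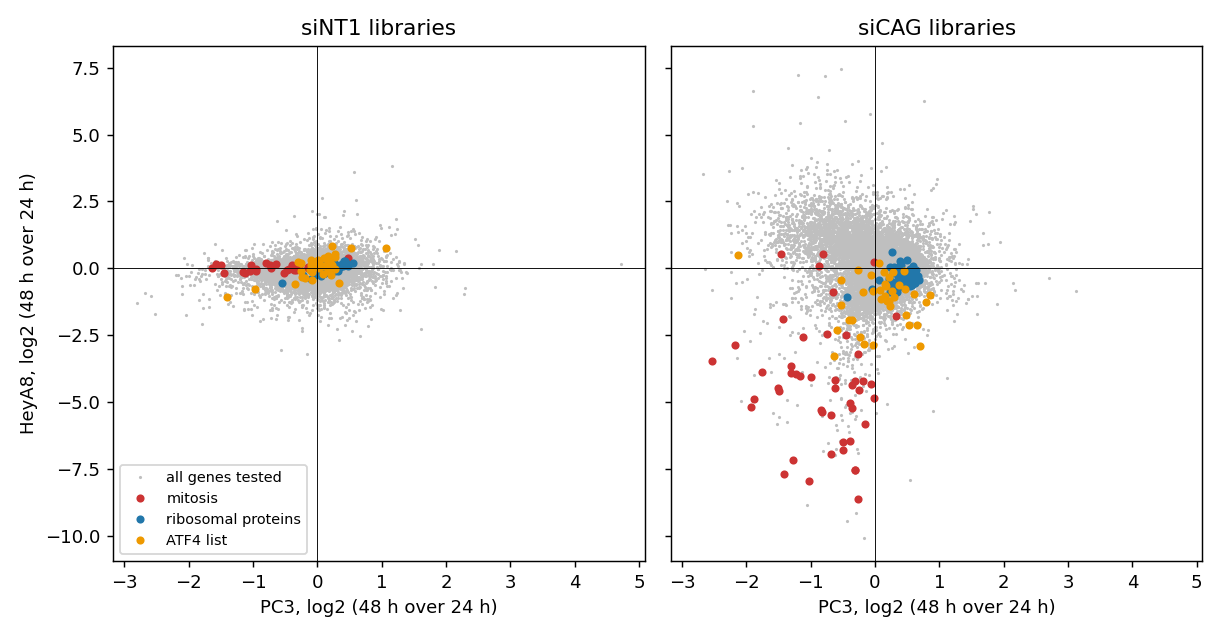
Log2 change from 24 h to 48 h in PC3 (horizontal axis) against HeyA8 (vertical axis) for 12238 genes (grey) in the siNT1 (left) and siCAG (right) libraries, 1 library for each line and time, with 3 gene groups coloured. With siCAG the mitosis genes lie far below 0 in HeyA8 and the ribosomal protein genes lie right of and mostly below the origin.

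Genes of mitosis showed the largest difference of any group examined. Of 47 tested, 39 were called with the more positive change in PC3 in the test of the line difference. ECT2 and KIF18A, regulators of cytokinesis and of chromosome alignment, were called with the reverse. In HeyA8 alone 42 of 47 fell and 0 rose. The shares over all genes were 17.4% and 21.4%. In PC3 alone 0 of 47 were called, in a fit that called 2 of 12238 genes. By fold, 17 of 47 were at least 2-fold lower in PC3, where 4.58% of all genes were, and 46 of 47 were below 0. The group's median change was -0.69 in PC3 and -4.36 in HeyA8 with siCAG, against -0.14 and 0.06 with siNT1. The median over all genes with siCAG was 0.087 in PC3 and -0.11 in HeyA8. Against siNT1 of the same line and time, the median of the group was -0.28 at 24 h and -0.80 at 48 h in PC3, and -1.08 and -6.01 in HeyA8 (log2). At an unadjusted p under 0.05 in the shared test 33 of 47 were lower and 0 higher, where 5.67% and 5.38% of all genes were.

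MKI67, the antigen of the proliferation marker Ki-67, went from 13927 normalised counts at 24 h to 67.4 at 48 h in HeyA8 with siCAG. With siNT1 it stood at 23717 and 24650 in that line. In PC3 it went from 8440 to 3180 with siCAG and from 10466 to 9509 with siNT1. The HeyA8 siCAG library at 48 h was thus the lowest of these 8 by far. Its change differed between the lines by 6.28 ± 0.29 (log2, SE, PC3 minus HeyA8, adjusted p = 3.84e-05 in edgeR's test).

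CDC20, an activator of the anaphase-promoting complex, went from 12897 to 229 normalised counts in HeyA8 and from 4310 to 3876 in PC3. TPX2, a spindle assembly factor, went from 12840 to 689 in HeyA8 and from 8149 to 6587 in PC3. In both genes the HeyA8 libraries were the higher at 24 h and the lower at 48 h. PLK1, a mitotic kinase, went from 4678 to 53.1 in HeyA8 and from 2254.5 to 1732 in PC3. KIF4A, a chromokinesin, went from 2953 to 15.5 in HeyA8 and from 2742 to 2214 in PC3. With siNT1, KIF4A stood at 3100 and 2977 in HeyA8. The line difference was 5.66 ± 0.23 for CDC20, 3.91 ± 0.22 for TPX2, 6.08 ± 0.26 for PLK1 and 7.26 ± 0.29 for KIF4A (log2, SE).

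BUB3, a spindle checkpoint protein, did not follow the group. It stood at 6432 and 7512 normalised counts in HeyA8 and at 5654 and 5619 in PC3, with an adjusted p of 0.372 for the line difference in edgeR's test. KIF11, the spindle motor Eg5, was lower at 48 h in both lines, from 2154 to 477 in PC3 and from 902 to 125 in HeyA8. Its shared change was -2.50 ± 0.28 (adjusted p = 0.119 in edgeR's test). KIF14, a cytokinesis motor, went from 1422 to 246 in PC3 and from 560 to 50.9 in HeyA8. With siNT1 both also read lower at 48 h in PC3, KIF11 from 2831 to 1457 and KIF14 from 2657 to 895, while in HeyA8 they stayed at 6065 and 5924, and 2366 and 2653.

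The mitosis group has a median GC content of 41.9%, against 47.9% for all genes tested. Genes with 40 to 42% GC (1107 genes) had a median siCAG change of 0.53 in HeyA8 and -0.13 in PC3. With the GC and length offsets, 43 of 47 were called with the more positive change in PC3 and 0 with the reverse (4.88% and 3.90% of all genes), and the median change was -4.63 in HeyA8 and -0.61 in PC3. By fold under these offsets, 6 of 47 were at least 2-fold lower in PC3, in place of 17, where 198 of 11994 genes were. In HeyA8 44 of 47 were, where 774 of 11994 genes were. Without the offsets the group's changes in PC3 had a rho of 0.684 with GC content over its 47 genes. This was the direction of the PC3 trend for all genes.

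**Figure D3:**
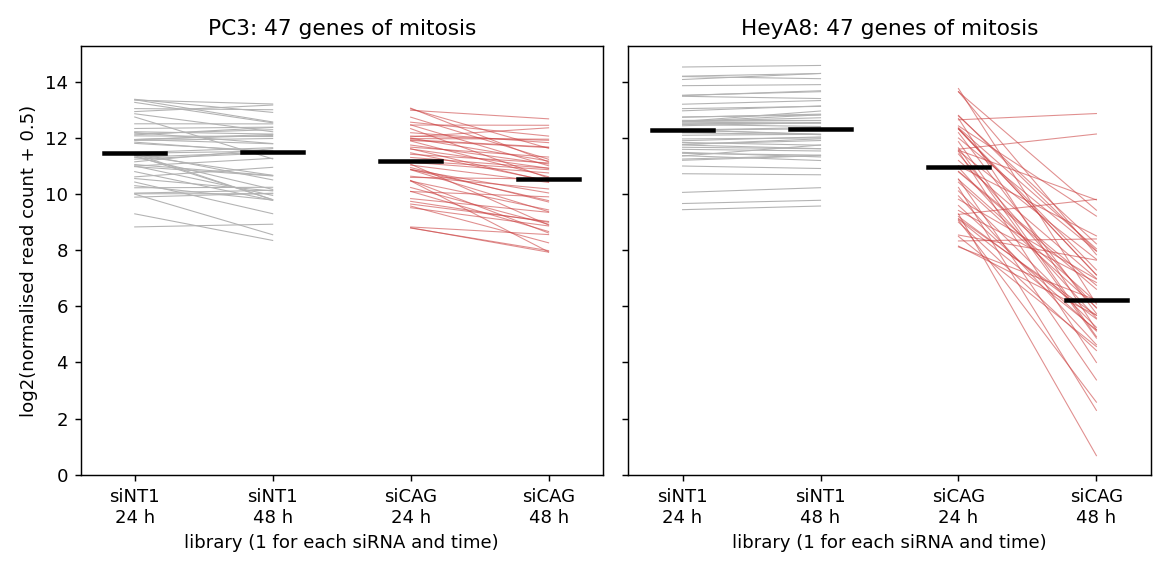
Log2 of the normalised read count plus 0.5 (vertical axis) of 47 mitosis genes in the siNT1 (grey) and siCAG (red) libraries at 24 h and 48 h of PC3 (left) and HeyA8 (right), with 1 line per gene and a black bar at the median of each library. The siCAG 48 h library of HeyA8 lies far below the other 7.

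Promoters of the mitosis list often held a short motif. The list was set beside all promoters, and genes that fell were not compared with genes that did not. The shares below thus describe the list and not the siCAG change. The element TTTGAA, the core of the cell cycle homology region, lay on either strand of 28 of 40 promoters of the list held in RefSeq (70%), against 15.4% of 27304 RefSeq promoters of the same length (250 bases before to 50 after the start, GRCh38.p14). CCAAT, the box bound by the factor NF-Y, lay in 77.5% of the 40 and 35.7% of all, and both lay in 60% against 6.08%. Of 37 promoters of the DNA replication list, 2.7% held TTTGAA and 54.1% held CCAAT. A match is a description of these letters and not a binding site. Windows of 30 bases from 5 genes that fell in HeyA8 are shown, 5′ to 3′ on the gene's strand, as examples in which the motif lies just before the start site. Over the 28 promoters it began between -161 and 40 bases from the start, so some lay farther upstream or after it. Capitals mark TTTGAA.
KIF4A: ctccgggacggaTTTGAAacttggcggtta
PLK1: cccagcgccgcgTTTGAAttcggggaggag
MKI67: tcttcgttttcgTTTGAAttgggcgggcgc
CDC20: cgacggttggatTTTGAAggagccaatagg
ANLN: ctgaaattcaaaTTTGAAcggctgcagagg
These windows lie at chrX:70290058-70290087 (plus strand), chr16:23678848-23678877 (plus), chr10:128126435-128126464 (minus), chr1:43358904-43358933 (plus) and chr7:36389830-36389859 (plus). The motif began 34, 29, 29, 65 and 20 bases before the start site.

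Genes of DNA replication fell with the mitosis genes in HeyA8 and changed less in PC3. Of 44 tested, 34 were called with the more positive change in PC3 and CCNE2, a cyclin of S phase entry, with the reverse (17.4% and 17.8% of all genes). By fold, 37 of 44 were at least 2-fold lower in HeyA8 and 1 higher, where 11.1% and 15.4% of all genes were. In PC3 1 of 44 was at least 2-fold lower, where 4.58% of all genes were, and 42 were below 0. The median change was -0.38 in PC3 and -2.05 in HeyA8, against 0.049 and -0.17 with siNT1. RRM2, a subunit of ribonucleotide reductase, went from 5147 to 40.9 normalised counts in HeyA8 and from 8889 to 5804 in PC3. MCM4, a subunit of the replicative helicase, went from 3273 to 856 in HeyA8 and from 5623 to 4993 in PC3. At 24 h the HeyA8 siCAG library already stood well below siNT1 for MCM4, at 3273 against 19009. The list's median against siNT1 in HeyA8 was -1.87 at 24 h and -3.93 at 48 h (log2). Under the same offsets 26 of 44 were called, all in the same direction (4.88% of all genes).

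No gene passed the shared test, so the values of some with small p are given as they stand, and BRIP1 and BRCA1 were chosen after their values were seen. ATAD2, a chromatin ATPase, went from 6068 to 2291 in PC3 and from 1849 to 734 in HeyA8. Its siNT1 values were 8263 and 6575, and 13466 and 11538. Its shared change was -1.37 ± 0.15 (SE, adjusted p = 0.119 in edgeR's test), and the lines differed by -0.07 ± 0.20. ARHGAP11A, a GTPase-activating protein, went from 5731 to 2124 in PC3 and from 1496 to 600 in HeyA8, a change of -1.38 ± 0.20 (adjusted p = 0.274 in edgeR's test). BRIP1 went from 1916 to 466 in PC3 and from 69.5 to 13.3 in HeyA8, and BRCA1, a scaffold of homologous recombination, from 1068 to 343 and from 531 to 197. MCM8, a helicase of recombination repair, went from 2019 to 1122 and from 675 to 283. These genes were lower at 48 h in each line, and BRCA1 and BRIP1 also read lower at 48 h with siNT1 in PC3, from 1374 to 815 and from 2338 to 1346.

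ID1, an inhibitor of basic helix-loop-helix factors, was lower at 48 h with siNT1 as well. It went from 4716 to 2170 in PC3 and from 2952 to 627 in HeyA8 with siCAG, a change of -1.67 ± 0.29 (adjusted p = 0.383 in edgeR's test). With siNT1 it went from 5436 to 1581 and from 3637 to 1288, a change of -1.64. By line the siCAG change was -1.12 in PC3 and -2.23 in HeyA8, and the siNT1 change was -1.78 and -1.50, so the lines differed from the control in opposite directions.

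None of the 20 genes at least 2-fold higher in both lines passed the shared test, and those named here were chosen after their values were seen. MXI1, an antagonist of MYC, went from 457 to 1030 in PC3 and from 492 to 1553 in HeyA8 (1.42 ± 0.21, adjusted p = 0.274 in edgeR's test). With siNT1 it went from 375 to 528 and from 317 to 448. BMF, a pro-death BCL2 family member, went from 491 to 1409 and from 52.1 to 264. FBXO32, a ubiquitin ligase subunit, went from 410 to 956 and from 374 to 1452. PIK3IP1, an inhibitor of phosphatidylinositol 3-kinase, went from 90.6 to 260.2 and from 194 to 919, while with siNT1 it went from 34.7 to 31 and from 27 to 34.7. BCL6, a transcriptional repressor, went from 412 to 827 in PC3 and from 1367 to 3201 in HeyA8, but also from 443 to 802 with siNT1 in PC3. The 20 genes had a median siNT1 change of 0.51 in PC3 and 0.42 in HeyA8, against 1.20 and 1.70 with siCAG. MTURN, TP53INP2, PGPEP1 and AOX1 were also higher at 48 h in both lines and were among the 10 abundant genes of smallest p, with adjusted p of 0.391, 0.391, 0.394 and 0.411 in edgeR's test.

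Genes of the p53 response as a list stood above siNT1 in HeyA8 with siCAG at 24 h and at 48 h. CDKN1A stood at 55648 normalised counts at 24 h and 60265 at 48 h in HeyA8 with siCAG, against 12771 and 11440 with siNT1. In PC3, a line that lacks p53, it stood at 1179 and 831 with siCAG and at 1373 and 865 with siNT1. BBC3, the pro-death protein PUMA, stood at 1097 and 872 in HeyA8 with siCAG, against 243 and 299. MDM2, the ubiquitin ligase of p53, went from 11422 to 30769 in HeyA8, against 8170 and 7548 with siNT1. TP53INP1, a p53-induced stress protein, went from 1361 to 12133, against 652 and 606. In PC3 MDM2 stood at 1948 and 1803 and TP53INP1 at 599 and 1161. BAX, a pore-forming death protein, went the other way in HeyA8, from 12876 to 7105.

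Of 25 genes of the p53 list, BAX alone was called with the more positive change in PC3 and 7 were called with the reverse (17.8% of all genes were), among them MDM2, TP53INP1 and RRM2B. In HeyA8 alone 9 rose and 5 fell, where 21.0% of all genes rose and 21.4% fell, so the share that fell was near that of all genes. The list's median change was 0.027 in PC3 and 0.12 in HeyA8, and its median against siNT1 in HeyA8 was 0.79 at 24 h and 0.98 at 48 h. Over all genes these HeyA8 levels were 0.16 and 0.094, and levels were not adjusted for GC content. After adjustment for GC content and length the median change was -0.031 in PC3 and 0.41 in HeyA8. In HeyA8 3 of 25 were then at least 2-fold higher and 0 lower, where 878 and 774 of 11994 genes were. Within the list the HeyA8 change had a rho of -0.828 with GC content over 25 genes. MDM2 and TP53INP1 have 39.5% and 39.3% GC, and BAX has 60.8%. With the GC and length offsets the line difference of MDM2 was -0.25 (adjusted p = 0.652 in edgeR's test) and that of TP53INP1 was -0.96 (adjusted p = 0.282). In that fit 0 of 25 were called with the more positive change in PC3 and 1 with the reverse, near the 3.90% of all genes.

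Genes of the ATF4 response fell in HeyA8 between 24 h and 48 h, after standing above siNT1 at 24 h. Of 38 tested, 23 were called with the more positive change in PC3, and SLC7A11, the cystine importer, with the reverse (17.4% and 17.8% of all genes). In HeyA8 alone 27 fell and 0 rose, where 21.4% of all genes fell. The median change was 0.15 in PC3 and -1.01 in HeyA8, against 0.019 and 0.11 with siNT1. After adjustment for GC content and length the siCAG medians were 0.030 in PC3 and -0.70 in HeyA8, over 35 genes. In HeyA8 the list's median against siNT1 was 1.48 at 24 h and 0.20 at 48 h, while in PC3 it was -0.077 and 0.023. Over all genes the HeyA8 levels were 0.16 and 0.094. The list has a median GC content of 51.3%, and these levels were not adjusted for it.

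SLC7A5, an importer of large neutral amino acids, went from 35865 to 3749 normalised counts in HeyA8, against 14393 and 13421 with siNT1. ASNS, asparagine synthetase, went from 5430 to 923, against 1109 and 1380. CHAC1, a glutathione-degrading enzyme, went from 956 to 128, against 82.8 and 82.9. The HeyA8 siCAG library at 24 h was thus above siNT1 for all 3 genes, and at 48 h SLC7A5 and ASNS were below it. ATF4 itself went from 39708 to 20547, and at both times stayed above siNT1 at 10194 and 11028. In PC3 SLC7A5 went from 4746 to 3048, ASNS from 1369 to 1161, CHAC1 from 173 to 280 and ATF4 from 4332 to 6594. The line difference was 2.62 ± 0.48 for SLC7A5, 2.32 ± 0.38 for ASNS, 3.59 ± 0.59 for CHAC1 and 1.56 ± 0.24 for ATF4 (log2, SE). Under the offsets 11 of 35 genes of the list were called, all with the more positive change in PC3 (4.88% of all genes), and ATF4 was not among them (0.73, adjusted p = 0.0749 in edgeR's test).

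**Figure D4:**
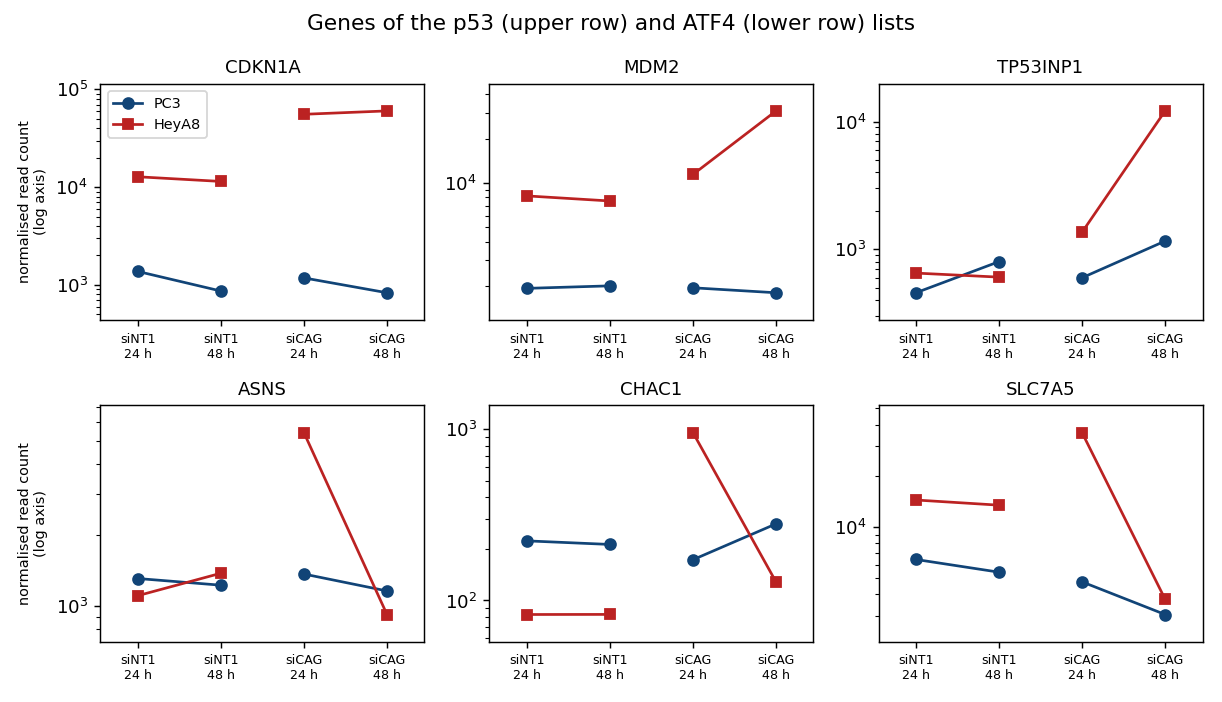
Normalised read counts (vertical log axes) of 3 genes of the p53 list (upper row) and 3 of the ATF4 list (lower row) in the siNT1 and siCAG libraries at 24 h and 48 h (horizontal axis), PC3 as blue circles and HeyA8 as red squares, 1 library per point. In HeyA8 with siCAG, CDKN1A stays near 55648 and 60265 while SLC7A5 drops from 35865 to 3749.

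Genes of protein synthesis differed between the lines. Of 79 ribosomal protein genes, 63 were called with the more positive change in PC3 and 0 with the reverse, where 17.4% and 17.8% of all genes were. Their median change was 0.46 in PC3 and -0.40 in HeyA8, against 0.18 and 0.010 with siNT1. RPLP0, a stalk protein of the large subunit, went from 55304 to 74875 in PC3 and from 125307 to 95098 in HeyA8. With siNT1 RPLP0 read almost the same rise in PC3, from 55472 to 74552. RPS6, a small subunit protein, went from 11719 to 15962 in PC3 and from 70840 to 57031 in HeyA8. Under the offsets 12 of the 79 were called, all in the same direction (4.88% of all genes), and the medians were 0.26 in PC3 and -0.086 in HeyA8.

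Of 48 genes of ribosome biogenesis, 28 were called with the more positive change in PC3 and WDR75 with the reverse (17.4% and 17.8% of all genes, as for the lists that follow), and the median change was 0.067 in PC3 and -0.73 in HeyA8. NOP56, a core protein of box C/D ribonucleoproteins, went from 12696 to 5295 in HeyA8 and from 7818 to 8221 in PC3. With the offsets 9 of the 48 were called (4.88% of all genes), and the medians were -0.11 in PC3 and -0.65 in HeyA8, both below 0. Genes of tRNA charging in the cytosol had medians of 0.11 in PC3 and -0.67 in HeyA8 (11 of 20 called, 0 the reverse, and 1 of 16 under the offsets, near the 4.88% of all genes). Proteasome genes had medians of 0.11 and -0.60 (21 of 36 called, and PSMA4, PSMC6, PSMD12 and POMP the reverse). Under the offsets 4 of the 36 proteasome genes were called and 0 the reverse. The medians were then -0.038 in PC3 and -0.27 in HeyA8, and those of tRNA charging -0.041 and -0.51, so the opposed directions of these groups did not hold.

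**Figure D5:**
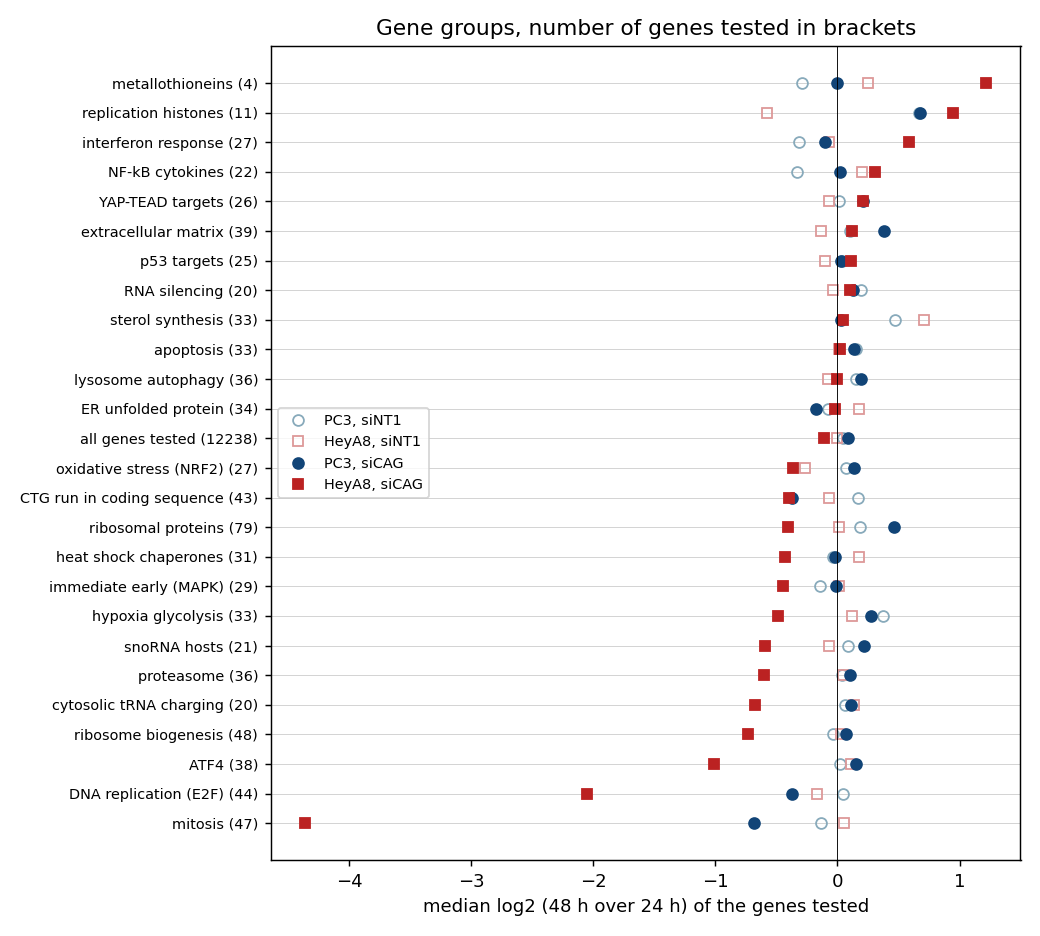
Median log2 change from 24 h to 48 h (horizontal axis) of the tested genes of each group (vertical axis, number of genes in brackets) with siCAG (filled) and siNT1 (open) in PC3 (circles) and HeyA8 (squares), from 1 library for each line, siRNA and time. In HeyA8 with siCAG the groups run from -4.36 for mitosis to 1.22 for the group labelled metallothioneins, which also holds MTF1 and SLC30A1, and the PC3 medians lie between -0.69 and 0.67.

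The 4 metal response genes tested, the metallothioneins MT1X and MT2A, the factor MTF1 and the zinc exporter SLC30A1, had median changes of -0.0024 in PC3 and 1.22 in HeyA8 and a median line difference of -1.28 (SLC30A1 alone called, and 0 of 4 under the offsets), and MT2A went from 16204 to 36970 normalised counts in HeyA8. Of 27 interferon response genes, 11 rose and 3 fell in HeyA8 alone (21.0% and 21.4% of all genes did), with a median of 0.58, against -0.10 in PC3. The line difference was called for 3 with the more positive change in PC3 and 8 with the reverse (17.4% and 17.8% of all genes). Under the offsets it was called for 0 and 1 (4.88% and 3.90% of all genes), with medians of 0.46 in HeyA8 and 0.019 in PC3. ISG15, a ubiquitin-like modifier, was not among the risers, at 362 and 241 in HeyA8. Of 11 replication-dependent histone genes that passed the filter, from 56 in the list, 0 were called. Their medians were 0.67 in PC3 and 0.95 in HeyA8, against 0.67 and -0.58 with siNT1 and 0.58 and -0.76 with mock. Of 39 extracellular matrix genes, 9 rose and 1 fell in HeyA8 alone, and the share that rose was near the 21.0% of all genes. FN1, fibronectin, stood at 301776 and 365016 in HeyA8 with siCAG while it went from 160820 to 74532 with siNT1.

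Sterol synthesis genes had a median siCAG change of 0.029 in PC3 and 0.047 in HeyA8, against 0.47 and 0.71 with siNT1. In HeyA8 the members ran from -1.09 to 3.28, with a rho of -0.70 with GC content over 33 genes. After adjustment for GC content and length the siCAG medians were -0.13 in PC3 and 0.41 in HeyA8. Of 33 tested, 0 passed the test of the siCAG change against the siNT1 change, and 11 were lower at an unadjusted p under 0.05, where 1.68% of all genes were. HMGCS1, the enzyme that makes HMG-CoA, went from 3523 to 2981 in PC3 with siCAG and from 3579 to 4630 with siNT1. In HeyA8 it went from 1434 to 5167 with siCAG and from 4947 to 12030 with siNT1, so it was higher at 48 h under both.

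Genes with a CTG run in the coding sequence were low with siCAG at both times. Of 86 genes that hold a run of 6 CTG or more, 43 passed the filter. Their median against siNT1 was -1.81 at 24 h and -2.32 at 48 h in PC3, and -2.07 and -2.33 in HeyA8 (log2). Their median change from 24 h to 48 h was -0.37 in PC3 and -0.39 in HeyA8, against 0.17 and -0.069 with siNT1. In the shared test 0 of 43 were called, and 9 were lower and 1 higher at an unadjusted p under 0.05 (5.67% and 5.38% of all genes). Under the offsets these medians were -0.32 and -0.063. MLEC, a carbohydrate-binding protein of the endoplasmic reticulum, went from 3476 to 2359 in PC3 and from 1551 to 1046 in HeyA8, where siNT1 gave 19152 and 20589, and 7872 and 7840. PTTG1IP, a binding partner of securin, went from 2851 to 2102 in PC3 and from 4935 to 3336 in HeyA8. RGMB, a co-receptor of bone morphogenetic proteins, did not follow, at 1259 and 1171 in PC3 and at 4989 and 5555 in HeyA8. RPL14 changed by -0.74 ± 0.19 in the shared test (adjusted p = 0.443 in edgeR's test).

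Against the changes of the controls, no gene passed for siCAG. Of 12238 genes, 0 (0%) differed from the siNT1 change at an adjusted p under 0.05 in edgeR's test, and at an unadjusted p under 0.05 there were 347 (2.84%), 142 higher (1.16%) and 205 lower (1.68%). DESeq2 called 1, KIF11. The genes of smallest p among abundant ones included FSTL1, a secreted glycoprotein, which went from 20769 to 34662 in PC3 and from 22948 to 49584 in HeyA8. With siNT1 FSTL1 stood at 10357 and 10593, and went from 15017 to 8893. IL7R, the receptor for interleukin 7, went from 2949 to 4772 and from 1713 to 5885, and CITED2, a transcriptional co-regulator, from 832 to 1236 and from 9670 to 24863. LRRC59, a protein of the endoplasmic reticulum, went from 2581 to 1604 and from 1012 to 450, where siNT1 stood at 21335 and 20773, and 13653 and 14688. Their adjusted p was 0.907 in edgeR's test, so these differences were not detectable at this replication, with the difference between the lines counted as spread.

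Against the siGGGGGC change 0 genes (0%) were called while 1006 had an unadjusted p under 0.05 (8.22%), 624 higher (5.10%) and 382 lower (3.12%), and DESeq2 called 85. The time change with siNT1 gave 0 called, with 98 higher (0.801%) and 93 lower (0.760%) unadjusted. With mock it gave 0 and 121 in both directions (0.989%), and with siGGGGGC 0 and 1799 (14.7%), with 725 higher (5.92%) and 1074 lower (8.78%). These comparisons share the siCAG or control libraries with those above. With siGGGGGC the mitosis list had medians of -0.024 in PC3 and -0.12 in HeyA8, set beside -0.69 and -4.36 with siCAG. The DNA replication list had -0.66 and -0.40 with siGGGGGC, set beside -0.38 and -2.05, so in PC3 it was lower with siGGGGGC.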

How the data were processed

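Per the labels and the study's methods, total RNA was depleted of ribosomal RNA and sequenced paired end, and the authors aligned reads to hg38 with STAR and counted them in genes with HTSeq. The deposited table holds raw read counts per gene for 16 libraries and no normalised values. Whether the counting used strand is not given in the sources used here, so genes that overlap are uncertain. No separate animals or donors exist. p-values measure the spread between these libraries, which may be technical.

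Counts were fitted with edgeR 4.0.16 (R 4.3.3, limma 3.58.1, TMM scaling, quasi-likelihood test, adjusted p under 0.05). The main design held a mean for each line and siRNA and a 48 h term for each siRNA (4 residual degrees of freedom). The test of the line difference added 1 term for siCAG in HeyA8 at 48 h (3 residual degrees of freedom). Genes were kept by filterByExpr and a mean CPM (counts scaled to library size) of at least 0.5 in each line over its 8 libraries. The biological coefficient of variation was 23.9% in the main fit and 13.3% with the line term. Each SE given with a log2 value is the absolute value over the square root of edgeR's F. It is thus not an error between repeated siCAG libraries. Scripts were tested on simulated data.

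The replicate number stands for the cell line, which pairs the libraries. The difference between the lines correlated across genes from 0.605 to 0.959 between the 8 groups. Transcript GC content and length came from GENCODE v44, where 23161 symbols matched directly, 1384 matched through older names in RefSeq and 1940 did not match. Promoters came from RefSeq (GRCh38.p14).

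The gene lists, tests and members were chosen with earlier results of these data known. Named genes were the 10 abundant genes (over 1000 normalised counts on average in the 4 siCAG libraries) of smallest p, since none passed, the same for siCAG against siNT1, the 4 most abundant and 3 of smallest p in each list, and RPL14 with the 5 most abundant genes with a CTG run. Genes outside that rule (among them KIF4A, PLK1, BRIP1, BRCA1, PIK3IP1, FBXO32, BCL6, BBC3, RRM2B, ASNS, CHAC1, RPS6, NOP56, ISG15, HMGCS1, IL6ST and single exceptions within a list) were chosen after their values were seen. Alternatives included DESeq2 1.42.0, other scalings and filters, and leaving out libraries. The GC and length offsets and the run without siGGGGGC were added after the data were seen. Some named genes are not reported here.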

Additional observations from a re-analysis of the deposited data

Results flagged for a closer look

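The change from 24 h to 48 h with siCAG differed between the lines for 4308 of 12238 genes in edgeR's test of the difference itself, with 1 library for each line and time. The part of base composition, which moved with this difference (rho of 0.445 in PC3 and -0.654 in HeyA8), was not tested beyond the offsets that left 1053 of 11994 genes.

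Among genes of mitosis the difference, PC3 minus HeyA8 on the log2 scale, was 3.91 for TPX2, 6.28 for MKI67, 5.66 for CDC20 and 2.10 for ANLN, and these calls held with the GC and length offsets. Among genes of the ATF4 list it was 1.56 for ATF4, 2.62 for SLC7A5, 1.41 for SHMT2, 1.72 for SLC1A5 and 1.55 for PSAT1. With the offsets SLC7A5 (1.91) and PSAT1 (1.76) were still called, while ATF4 (0.73), SHMT2 (0.54) and SLC1A5 (0.87) were not. Groups of 2 libraries were too small for a test of single outlying samples.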

How the results depend on the processing

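The count of 0 for siCAG at 48 h against 24 h became 2 without a filter on low counts (BRIP1 and KIF11), 72 with only the siCAG libraries, 189 with DESeq2, and 2 to 5183 when each siCAG library was left out. It was 5183 and 5181 without PC3 at 24 h or 48 h and 2 in each case without HeyA8. Against siNT1 the count of 0 became 1 with DESeq2 and 0 to 4199 with a library left out (4195 and 4199 without PC3 siCAG at 24 h or 48 h). Against siGGGGGC it became 85 with DESeq2 and 0 to 3400 (3398 and 3400 without PC3 siCAG, 299 and 324 without HeyA8 siCAG). With only their own libraries, mock gave 25 and siGGGGGC 255, and DESeq2 gave 1 for siNT1, 2 for mock and 372 for siGGGGGC. The line difference of 4308 became 1053 with the GC and length offsets, and it ran from 3233 to 4661 under its other alternatives. Leaving out a siCAG library, dropping the block or using the siCAG libraries alone left no fit for it. With no replicate block, which ignores the pairing by cell line, all 6 other counts stayed at 0, and 141 genes were under an unadjusted p of 0.05 for siCAG over time in place of 1352.

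The line difference turned its sign for TNFRSF10B (-0.12), SESN1 (0.098), FDXR (-0.155), BUB3 (0.66) and EPRS (0.39) with the offsets and for POLA1 (-0.014) with total counts only, and none of these 6 was called in either fit. The cause was not tested. The biological coefficient of variation was 23.9% in the shared fit and 13.3% once the lines were allowed to differ. There is 1 library for each line, siRNA and time.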

Other observations

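Heat shock chaperones had a median of -0.020 in PC3 and -0.43 in HeyA8, where 13 of 31 fell and 6 rose in HeyA8 alone. Of all genes, 21.4% fell and 21.0% rose in that fit. They stood below siNT1 in HeyA8 at both times, with medians of -0.47 and -0.93 (log2). Over all genes these levels were 0.16 and 0.094, without adjustment for GC content. HSPD1, a mitochondrial chaperonin, went from 26238 to 13919 normalised counts in HeyA8, against 46265 and 57618 with siNT1. Hypoxia and glycolysis genes had medians of 0.27 in PC3 and -0.48 in HeyA8 (11 of 33 fell and 5 rose in HeyA8 alone), against 0.38 and 0.12 with siNT1. With the GC and length offsets these medians were 0.10 and -0.14. LDHA, lactate dehydrogenase A, went from 50280 to 67864 in PC3, where siNT1 gave 45025 and 67005, and from 41684 to 27486 in HeyA8.

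NRF2 targets had medians of 0.14 in PC3 and -0.37 in HeyA8, snoRNA hosts 0.22 and -0.59, and immediate early genes -0.013 and -0.44. The PC3 and HeyA8 medians were 0.19 and -0.0072 for lysosome and autophagy genes, 0.13 and 0.022 for apoptosis genes, and 0.13 and 0.11 for RNA silencing genes. They were -0.18 and -0.018 for endoplasmic reticulum chaperones, 0.21 and 0.21 for YAP-TEAD targets, and 0.021 and 0.31 for NF-kB cytokines. Over all genes they were 0.087 and -0.11. Under the offsets the HeyA8 medians were 0.41 for lysosome and autophagy, 0.58 for NF-kB, 0.36 for YAP-TEAD, 0.12 for apoptosis, -0.55 for snoRNA hosts, -0.31 for heat shock and -0.15 for NRF2. The sign turned for immediate early genes (0.043), endoplasmic reticulum chaperones (0.044), RNA silencing (-0.18) and, as given, lysosome and autophagy. In PC3 it turned for NRF2 targets (-0.0090) and NF-kB cytokines (-0.11). No gene of these lists passed the shared test.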
